A study of Mus musculus with 2 samples.

Results

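B lineage precursors are here the cells of this mouse muscle dataset that carry transcripts of any of Vpreb1, Vpreb3, Igll1 and Rag1. These genes are used while a B cell is still assembling its antigen receptor, and expression of Vpreb3 lasts into immature stages. A kept cell was a member when these 4 genes together had at least 2 UMIs (unique molecular identifiers, each 1 counted transcript), Cd79a and Cd79b together had at least 1, and C1qa, C1qb and Csf1r of macrophages together had under 3. The rule found 174 members among 18975 kept cells, 22 of 7738 in the sham library and 152 of 11237 in the tenotomy library. Most members did not carry all 4 genes, and Vpreb3 alone chose 7 sham and 76 tenotomy members. Mature B cells, used for comparison, had at least 3 UMIs of Cd79a and Cd79b, at least 2 of Ms4a1, Ighd and Fcmr, and none of the 4 precursor genes, which gave 21 sham and 66 tenotomy cells.

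The cells came from plantaris, a calf muscle, of 5 male C57BL/6J mice aged 12 weeks. One plantaris of each mouse was loaded by a tenotomy, and the muscle of the other leg of the same mouse served as sham control. The labels used here do not name the tendon. On day 4 the 5 muscles of a side were pooled, digested with collagenase and sorted for living mononuclear cells, and each pool gave a single droplet 3′ library. With 1 library a side there is no replicate, so no difference was tested, and every interval is a 95% interval that covers counting error only. The intervals are exact except those of ratios of shares, which use a normal approximation on the log scale.

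B cells form in adult bone marrow in ordered stages. Pro-B cells join the segments of the immunoglobulin heavy chain with the recombinase of Rag1 and Rag2, while Dntt adds bases at the joints. The finished heavy chain is first displayed with the surrogate light chain, made of a Vpreb protein and Igll1, and with the signalling pair Cd79a and Cd79b; this pre-B receptor drives a burst of division under interleukin 7. Small pre-B cells then stop dividing, switch the surrogate chain off, recombine a kappa or lambda light chain, and become immature B cells that later gain Ighd, Ms4a1 and high MHC class II.

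Vpreb1 and Igll1 were found in the same cells in sham and partly so in tenotomy, as described below. Their genes lie beside each other on chromosome 16, Igll1 at chr16:16860671-16863985 and Vpreb1 at chr16:16868403-16870843. A stretch of the promoter window of each is shown to let a reader see which letters they share with Vpreb2, a near copy of Vpreb1 at chr16:17980428-17981273, and with Rag1 at chr2:101638282-101649501. Each stretch has 106 bases, is RefSeq sequence of build GRCm38.p6 read 5′ to 3′ on the gene's strand, and carries in capitals the E-box CAGGTG, in either orientation, of the kind bound by E proteins such as Tcf3. The stretches lie at chr16:16869256-16869361 (minus strand) for Vpreb1, chr16:17980315-17980420 (plus strand) for Vpreb2, chr16:16863986-16864091 (minus strand) for Igll1 and chr2:101649577-101649682 (minus strand) for Rag1. Each lies before the start that RefSeq gives the gene. The gene spans above are those of GENCODE, whose Vpreb1 begins farther out, so the Vpreb1 stretch lies inside its printed span.
Vpreb1: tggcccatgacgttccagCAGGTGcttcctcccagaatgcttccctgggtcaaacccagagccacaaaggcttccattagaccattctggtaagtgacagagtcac
Vpreb2: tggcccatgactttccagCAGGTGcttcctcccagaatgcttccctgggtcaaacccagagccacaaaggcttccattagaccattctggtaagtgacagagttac
Igll1: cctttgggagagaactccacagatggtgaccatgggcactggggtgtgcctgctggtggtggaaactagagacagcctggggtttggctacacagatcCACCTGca
Rag1: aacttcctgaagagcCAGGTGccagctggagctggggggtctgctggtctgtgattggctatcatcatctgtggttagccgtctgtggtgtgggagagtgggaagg
The Vpreb1 and Vpreb2 stretches were identical at 104 of 106 bases, and differed by G12T and C104T (Vpreb1 base first, counted from 1 at the 5′ end of the printed stretch). Over their transcripts 739 of 759 aligned bases matched, 97.4%, and over the last 300 bases 96%, so reads of Vpreb1 and Vpreb2 can be confused and both counts are uncertain.

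CAGGTG was in the windows (250 bases before to 50 after the start) of 5 of 8 genes looked at: Vpreb1, Vpreb2, Igll1, Rag1 and Cd79a, but not Vpreb3, Rag2 or Dntt. Of all 32851 such windows, 20.2% held it. The motif and the stretches were chosen after 7 motifs had been searched on both strands, so the matches are a description of the letters and show no binding. The other motifs were CAGCTG, in 3 of the 8 genes and 16.3% of all windows, TGACNCA, in 2 and 15.4%, and 4 overlapping forms of an Ebf1 palindrome. Of those forms CCCNNGGG, which lies inside the others, was in 1 of the 8 genes (Igll1) and 13.7% of all windows, while CCCNNGGGA and its reverse complement TCCCNNGGG were in none and 6.56%, and the full palindrome in none and 0.904%. An absent match says only that these letters are not in this window.

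Precursors were shallow cells, with a median of 3998 UMIs in sham and 1954 in tenotomy, against 4942.5 and 5964 over all kept cells. Mature B cells were alike in this, at 3662 and 1839.5. The libraries shared 33 barcodes, of which none was a precursor. Scrublet, a doublet caller, marked 190 sham and 320 tenotomy cells, none of them a precursor. Some barcodes nevertheless carried at least 10 UMIs of a marker list of another cell type, here called mixed barcodes: 4 of 22 sham precursors with 26.9% of the class's UMIs, 8 of 152 tenotomy precursors with 19.1%, and 11 of 66 tenotomy mature B cells with 55.7%. Of 21 sham mature B cells 4 were mixed barcodes, with 37.6% of that class's UMIs. The limit of 10 UMIs was set after seeing the data, and gene values below are given without mixed barcodes wherever stated.

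Precursors made up 0.284% of sham cells (0.178 to 0.430) and 1.35% of tenotomy cells (1.15 to 1.58), a share 4.76 times as high after tenotomy (3.05 to 7.43). Mature B cells were 0.271% and 0.587%, a ratio of 2.16 (1.33 to 3.53). Among precursors and mature B cells together, precursors were 51.2% of 43 sham cells (35.5 to 66.7) and 69.7% of 218 tenotomy cells (63.2 to 75.7), and these intervals overlap. With Vpreb3 left out of the rule, 12 sham and 44 tenotomy cells remained and the ratio was 2.52.

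Barcodes with UMIs of the granulocyte or erythroid marker lists had a higher share in the tenotomy library as well. Those with at least 3 UMIs of Elane, Mpo, Prtn3 and Ctsg, protease and peroxidase genes of early granulocyte precursors, were 15 sham and 101 tenotomy cells, 0.194% and 0.899%. With the later granule genes Ngp, Camp, Ltf and Chil3 added, they were 150 and 861 cells, 1.94% and 7.66%. At least 3 UMIs of the 9 erythroid markers, among them Blvrb and the haemoglobin genes Hba-a1 and Hbb-bs, were found in 613 and 2605 cells, 7.92% and 23.2%. This list does not pick erythroid cells alone. In sham mature B cells Blvrb was its only gene with UMIs, and 3 of those 21 cells passed the limit. Endothelial marker cells went the other way, 47.8% against 14.2% of kept cells. The part of these shifts in the share of precursors was not tested, and a larger number of precursors cannot be told apart from a smaller number of other cells in a share.

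**Figure D1:**
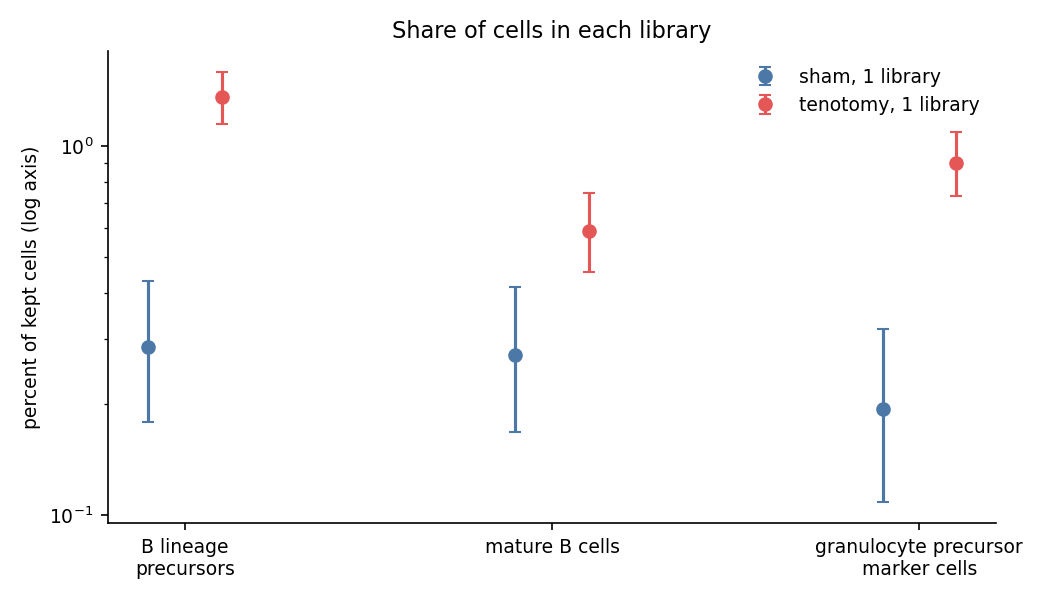
Percent of kept cells (log axis) in B lineage precursors, mature B cells and cells with at least 3 UMIs of Elane, Mpo, Prtn3 and Ctsg, with 1 point a library and exact 95% intervals for counting error. The tenotomy point lies above the sham point in all 3 classes, 1.35% against 0.284% for B lineage precursors.

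The genes that chose the cells are given as a description. The 4 genes together had a median of 19 UMIs a cell in sham precursors (highest 94) and 8 in tenotomy precursors (highest 67). Just inside the limit, 3 sham and 21 tenotomy members had exactly 2 UMIs; just outside, 14 and 22 cells that met the other conditions had exactly 1. Vpreb3, a partner of the pre-B receptor whose expression lasts into immature stages, was found in 22 of 22 sham and 151 of 152 tenotomy members and alone chose 7 and 76 of them. The macrophage limit removed 2 sham and 18 tenotomy cells, and 2 tenotomy cells with the 4 genes had no Cd79a or Cd79b.

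The members carried B lineage genes but were uneven in stage. All 8 B cell markers had UMIs in both libraries' members, but Cd79a and Cd79b among them were part of the rule. Having UMIs is a low bar, since all 6 mesenchymal and all 6 endothelial markers also had some in sham members. Of the T and natural killer list, Cd3d, Cd3e, Cd3g, Trac and Trbc2 were at 0 in both libraries. Of the 9 genes of that list Thy1 and Nkg7 had UMIs, 7 in all in sham and 8 in tenotomy, up to 4 a cell. Some members also carried genes of later B cells: 7 of 22 sham and 36 of 152 tenotomy precursors had at least 2 UMIs of Ms4a1, Ighd and Fcmr. The set therefore spans early cells with the surrogate light chain to cells chosen by Vpreb3 and rich in light chain transcripts.

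Vpreb1 and Igll1 were part of the rule, so their shares are a description of the chosen cells. Vpreb1 was found in 10 of 22 sham precursors, 45.5%, and 16 of 152 tenotomy precursors, 10.5%. Igll1 was found in 10 and 16 cells as well, and in sham these were the same 10 cells. In tenotomy 11 of the 16 cells with Vpreb1 had Igll1, and 11 of the 16 with Igll1 had Vpreb1. Vpreb2, the near copy, was found in 8 sham and 4 tenotomy cells, each of which also had Vpreb1. At least one of Vpreb1 and Igll1 was present in 45.5% of sham precursors (24.4 to 67.8) and 13.8% of tenotomy precursors (8.76 to 20.3). Thinned to 1000 UMIs a cell, which left 22 and 143 cells, the shares were 40.9% and 7.69%.

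The background was read in endothelial marker cells, which should lack these genes: at median depths of 3715 UMIs in sham and 3392.5 in tenotomy, Vpreb1 was found in 0.433% and 0.250%, Igll1 in 0.0541% and 0%, and Rag1 in 0.0541% and 0.125%. For tenotomy Igll1 that is 0 of 1600 cells, which allows a share of up to 0.230%. Of the 3699 sham endothelial marker cells 2 were also members of the precursors and were not left out, so the sham shares may include them. In mature B cells the rule set these genes to 0.

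Recombination genes followed the surrogate light chain in part. Dntt, the polymerase of heavy chain joining, was present in 8 of the 10 sham and 4 of the 21 tenotomy precursors with Vpreb1 or Igll1. It was in 0 of 12 and 0 of 131 without both, and the latter allows a share of up to 2.78%. Rag1 was in 59.1% of sham and 43.4% of tenotomy precursors, and thinned in 27.3% and 25.2%, so the libraries were close at equal depth. Rag2, its partner, was in 31.8% and 9.87% of cells, and thinned in 4.55% and 4.196%. Among tenotomy precursors without Vpreb1 and Igll1, 42.0% of 131 cells still had Rag1. The splits by Vpreb1 or Igll1 are not at equal depth. Cells with either gene had a median of 10871.5 UMIs in sham and 5743 in tenotomy, against 3398.5 and 1670 in noncycling cells without both.

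Light chain transcripts divided the sham cells most clearly. Igkc, the kappa constant gene, was found in 1 of 10 sham cells with Vpreb1 or Igll1 and in 12 of 12 without both. In tenotomy the same counts were 16 of 21 and 119 of 131, so most tenotomy cells with the surrogate light chain also had kappa transcripts. Ighm, the mu heavy chain, was in 21 of 22 sham and 152 of 152 tenotomy precursors. Counts of constant genes do not separate transcripts of a joined gene from those of an unjoined one.

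**Figure D2:**
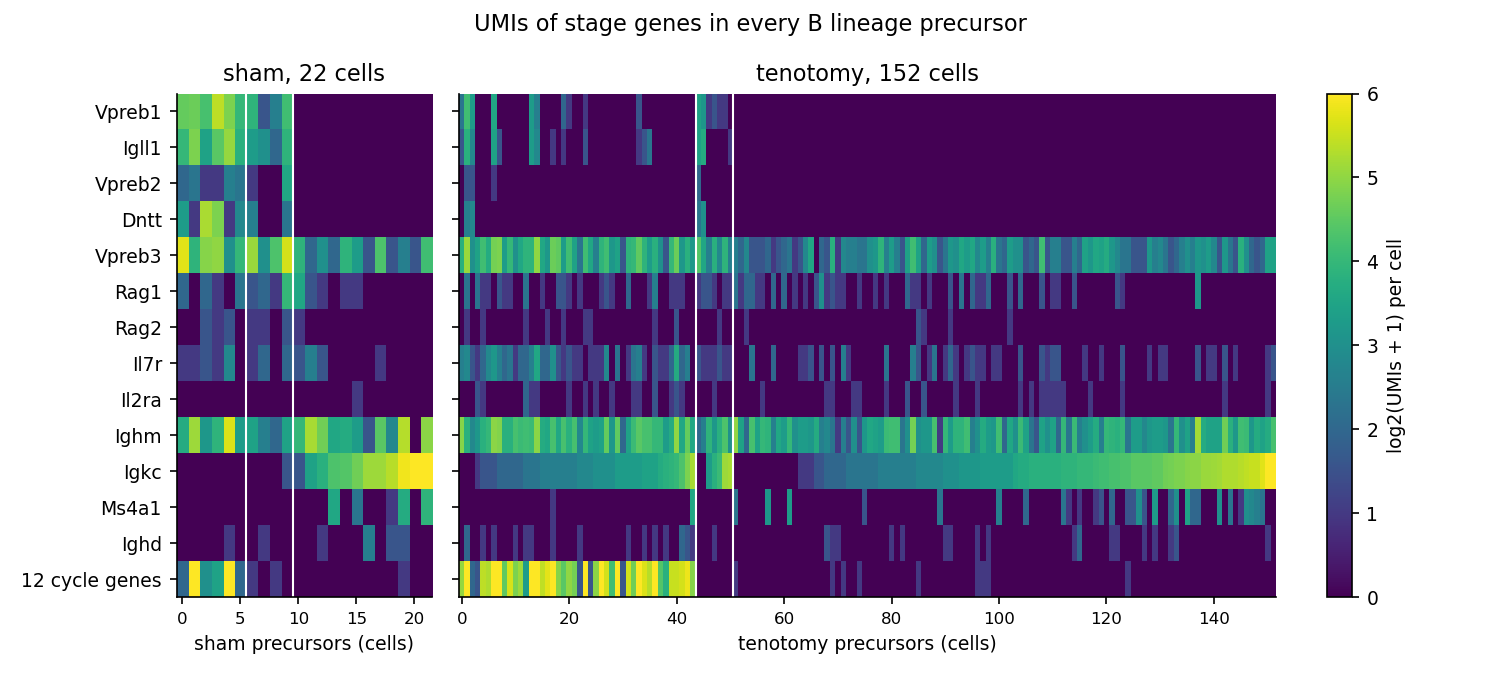
UMIs of 13 genes and of the sum of 12 cycle genes (rows, colour as log2 of UMIs + 1) in each of the 22 sham and 152 tenotomy precursors (columns); white lines divide cycling cells, other cells with Vpreb1 or Igll1, and other cells without both, and cells are ordered by Igkc within each. Sham cycling cells have Vpreb1, Igll1 and no Igkc, whereas most tenotomy cycling cells have Igkc.

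Variable segments of the light chain, which 3′ reads rarely reach, had UMIs in a few cells; such a UMI does not tell a joined from an unjoined segment. A kappa variable segment (Igkv) was found in 33 of 152 tenotomy precursors, 21.7% (15.4 to 29.1), over 14 different segments, the most frequent being Igkv1-35 in 8 cells. Among the 66 tenotomy mature B cells, which had a like depth, 2 had one, 3.03% (0.369 to 10.5). In sham the counts were 4 of 22 precursors, 18.2% (5.19 to 40.3), and 3 of 21 mature B cells, 14.3% (3.05 to 36.3), with intervals that overlap widely. By state, 28 of 101 noncycling cells without Vpreb1 and Igll1 had an Igkv segment, against 4 of 44 cycling cells.

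Heavy chain variable segments (Ighv) were found in 4 sham and 10 tenotomy precursors, and the 10 tenotomy cells carried 10 different segments. Each of those segments was thus in 1 cell. In endothelial marker cells, 0 of 1600 tenotomy cells had a segment of either kind. Segment genes are close relatives of one another, so the assignment of a read to one of them is uncertain.

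Cells with cycle transcripts were found among the precursors of both libraries. A cell was called cycling when 12 cycle genes such as Mki67 and Top2a had at least 2 UMIs in all; that is a range of counts and not a cell type. By this limit 6 of 22 sham precursors, 27.3% (10.7 to 50.2), and 44 of 152 tenotomy precursors, 28.9% (21.9 to 36.8), were cycling. Thinned to 1000 UMIs, 3 of 22 sham cells were left, 13.6% (2.91 to 34.9). In tenotomy 39 of 143 were left, 27.3% (20.2 to 35.3). Of mature B cells, 0 of 21 and 4 of 66 were cycling, and none after thinning. All kept cells, at a higher median depth, gave 1.73% in sham and 19.7% in tenotomy, and thinned 0.468% and 7.63%, so precursors of either library were above their library at equal depth.

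The cycling cells of the libraries differed in stage genes. All 6 sham cycling cells had Vpreb1 or Igll1, all 6 had Dntt, and none had Igkc. Of the 44 tenotomy cycling cells 14 had Vpreb1 or Igll1, 2 had Dntt and 41 had Igkc. The sham cycling cells were deep, with a median of 20351 UMIs against 4138.5 in tenotomy, and 2 of the 6 sham and 4 of the 44 tenotomy cycling cells were mixed barcodes. UMIs of the 12 cycle genes were 3, 3, 7, 10, 63 and 287 in the 6 sham cells. In tenotomy cycling cells they ranged from 2 to 234, so for some cells the call rests on few UMIs.

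Comparing cycling with noncycling tenotomy precursors, without mixed barcodes, 281 of 1515 measured genes were 2-fold or more up in cycling cells, 18.5%, and 148 down by as much, 9.77%. A gene counted as measured when the higher class had at least 25 UMIs, a level of at least 50 CPM (UMIs scaled to a class total of 1000000) and 10% of the library's level. With all members the counts were 367 of 1929, 19%, and 201, 10.4%, and there the leading genes were Ngp and Camp, granule genes of neutrophil precursors, of which a single cell held 99.2% and 98.4% of the UMIs.

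Cycle genes led, as the definition of the states fixes: Top2a (1510 against 5.53 CPM, 273-fold, 48.7 to 10829), Pclaf (256-fold), Mki67 (123-fold), Birc5 (109-fold), Ube2c (at least 54.2-fold) and Cdca8 (at least 33.0-fold). All 20 measured mitosis genes and all 14 S phase genes were higher. Here and below "at least" marks a comparison with a group at 0, set to 3 UMIs over that group.

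Lambda and kappa transcripts went the other way. Iglc1 had 0 UMIs in cycling cells and 271 in noncycling cells, at least 99.5-fold lower, and Iglc2 and Iglc3 were at least 42.6-fold and 20.6-fold lower. Igkc was 6.04-fold lower (5.32 to 6.88), although most cycling cells had some. These 3 lambda constant genes are close copies, so their separate counts are uncertain.

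Antigen presentation genes and genes of later B cells were also low in cycling cells, where 9.77% of all measured genes were lower. All 4 measured MHC class II genes were lower, among them Cd74, the invariant chain, at 301 against 3913 CPM (13.0-fold, 9.98 to 17.2), and H2-Eb1, 10.8-fold (6.12 to 20.9). Of 10 measured genes of mature B cells 9 were lower, such as Fcmr, the IgM Fc receptor (19.8-fold), Cd83 (13.8-fold) and Ms4a1, which encodes CD20 (10.6-fold). Ly6d, a surface protein of committed B cells, was 5.86-fold lower and the adhesion receptor Cd2 10.3-fold lower.

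Among the regulators, 6 of 22 measured B lineage transcription factors were lower and 1 higher, against 9.77% lower and 18.5% higher over all measured genes. Bcl11a was 4.63-fold lower, Pou2f2 3.67-fold, Ikzf3, which limits the response to the pre-B receptor, 3.12-fold, and Klf2 2.82-fold, while Lef1 was 2.33-fold higher. Myb (1.04-fold), Pou2af1 (0.918-fold) and Bach2 (0.997-fold) were at like levels. Rag1 was 2.69-fold lower in cycling cells, Il7r 1.39-fold higher, and Vpreb1 and Igll1 2.45-fold and 2.25-fold higher. Il1b, a cytokine gene of myeloid cells, was 45.7-fold lower, but 1 noncycling cell held 95.3% of its UMIs.

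**Figure D3:**
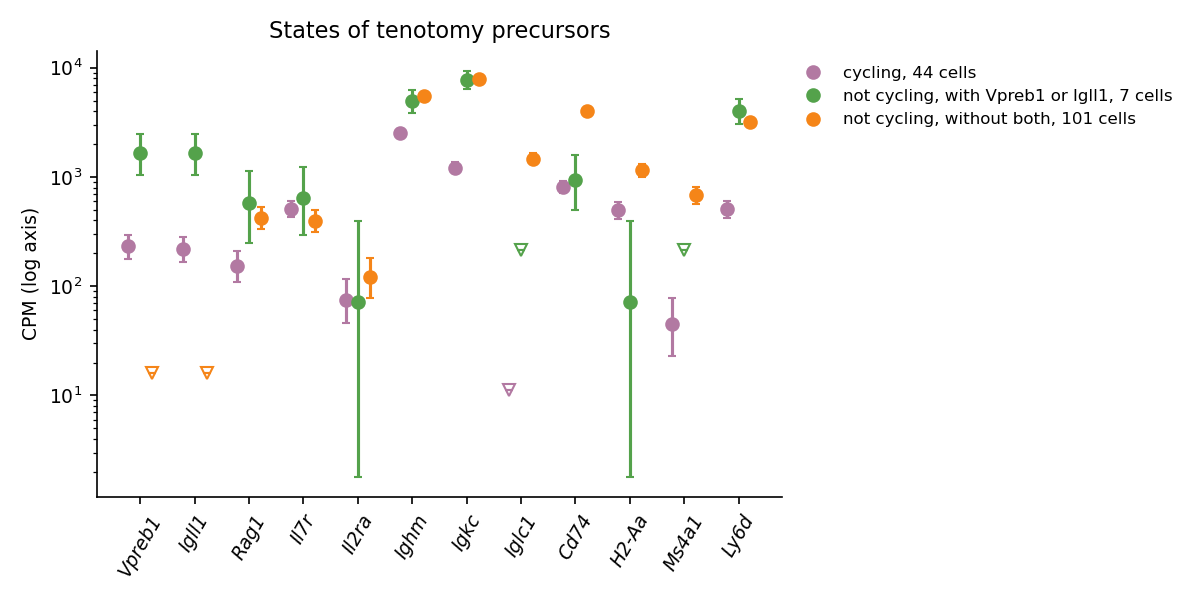
Level of 12 genes (CPM, log axis) in 3 states of all 152 tenotomy precursors, with exact 95% intervals for counting error; open triangles mark the level of 3 UMIs where a gene had none. Igkc, Cd74 and Ly6d are lower in the cycling cells than in the noncycling cells without Vpreb1 and Igll1, and Iglc1 has no UMI there.

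The comparison of precursors with mature B cells describes what the choice of cells carries with it and is no test, since both were chosen on these counts. In tenotomy, 691 of 2974 measured genes had a level 2-fold or more above that of mature cells, 23.2%, and 331 as far below it, 11.1%; without mixed barcodes the counts were 695 of 2012, 34.5%, and 88, 4.37%. The classes then held 380244 and 112530 UMIs, so a gene low in precursors reaches the limit of 25 UMIs less easily than one high in them, and the median measured gene was 0.64 higher in precursors on the log2 scale. With all members the median measured gene was 0.35 higher in precursors on the log2 scale, and with folds divided by that median the counts were 477 higher and 466 lower. In sham the counts were 354 of 1237, 28.6%, and 134, 10.8%, and without mixed barcodes 301 of 831, 36.2%, and 78, 9.39%.

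With all members the leading genes of the tenotomy comparison were in part those of mixed barcodes. Besides Vpreb3, Cenpf, Rag1, Rrm2, Myl4, Bcl7a, Myb and Il7r, the 12 highest named genes included the neutrophil genes Camp, S100a9, Ngp and S100a8, and 91.3% of the S100a9 UMIs lay in a single cell. The 12 lowest were Sparcl1, Cldn5, Myh11, Tagln, Aqp1, Cdh5, Postn, Igfbp7, Pf4, Flt1, Col6a3 and Apoe, genes of vessels, connective tissue and macrophages. Without mixed barcodes neither group was among the named genes, and the values that follow are without them.

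Vpreb3 had 1203 UMIs in tenotomy precursors and, by the rule, 0 in mature B cells, at least 119-fold. Rag1 was at least 12.2-fold, Vpreb1 at least 8.39-fold and Igll1 at least 7.89-fold. Cycle genes made up most of the other leading genes: Top2a (89.4-fold, 15.9 to 3542), Pclaf (83.8-fold), H2afx (28.1-fold), Mki67 (at least 26.9-fold), Hist1h1b (at least 25.5-fold), Stmn1 (18.5-fold), Ube2c (at least 17.7-fold) and Hmgb2 (13.9-fold). Of measured mitosis genes 19 of 20 were higher, and of S phase genes 15 of 15, against 34.5% of all measured genes. Outside the cycle, Pafah1b3 was 26.5-fold higher (10.3 to 97.7) and Myl4, a myosin light chain gene, 38.8-fold higher (10.6 to 322), with 262 UMIs spread over 73 precursors and 2 UMIs in mature cells.

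Surface and adaptor genes of early B cells were nearly all higher, 9 of 10 measured, against 34.5% of all measured genes. Cd93, a surface marker of immature B cells that endothelium also makes, had 120 UMIs in precursors and 1 in mature cells (35.5-fold, 6.25 to 1414). Il7r, the interleukin 7 receptor, was 31.5-fold higher (8.62 to 261.9), and Tifa 15.2-fold, Akap12 14.0-fold, Cecr2 13.6-fold, Cd24a 6.21-fold and Il2ra at least 4.04-fold. Ly6d was at 1.26-fold.

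Of 20 measured transcription factors of the lineage 8 were higher and none lower, a share of higher genes close to the 34.5% of all measured genes. Myb, a factor of progenitor growth, was 20.9-fold higher (7.06 to 102.2), Sox4 15.5-fold (8.09 to 34.1), Lef1 14.8-fold, Tcf3 11.7-fold and Bach2 4.35-fold (2.62 to 7.73). The identity factors Ebf1 and Pax5 differed little, at 1.78-fold (1.501 to 2.12) and 1.16-fold (0.789 to 1.74). Of the growth genes Cdk6 was 8.73-fold and Ccnd3, a cyclin that pre-B cells need, 4.99-fold higher.

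MHC class II was low throughout in precursors, 6 of 6 measured genes in tenotomy and 5 of 5 in sham, with median log2 folds of -2.76 and -3.27 against 0.64 and 0.62 over all measured genes. In tenotomy H2-Eb1 was 8.46-fold lower (371 against 3137 CPM), H2-Aa 7.97-fold, Cd74 7.28-fold and H2-Ab1 6.27-fold. Other leading low genes were Nr4a1, which antigen receptor signals induce (18.9-fold, 7.21 to 62.8), Ifitm1 (14.6-fold), Stap1 (13.5-fold), Satb1 (12.3-fold), Shisa5 (9.95-fold), the protease gene Ctsh (9.54-fold), Fcmr (99.9 against 799.8 CPM) and Stk17b (7.37-fold). In sham Satb1 was also low, with 26 UMIs in precursors and 71 in all mature cells.

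Receptor genes themselves were close. Cd79a was 0.836-fold and Cd79b 1.35-fold, Ighm 1.18-fold and Igkc 0.504-fold the mature level, while Iglc2 was 3.00-fold and Ighd 7.01-fold lower. Of 12 measured signalling genes 4 were higher, no more than among all measured genes (34.5%), among them the adaptor Dok3 (5.15-fold), and Bank1 was the single lower one (7.51-fold). Ccr7, a homing receptor for lymph nodes, was 3.33-fold lower, while Cxcr4, the receptor that holds precursors in bone marrow, was at 0.972-fold.

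**Figure D4:**
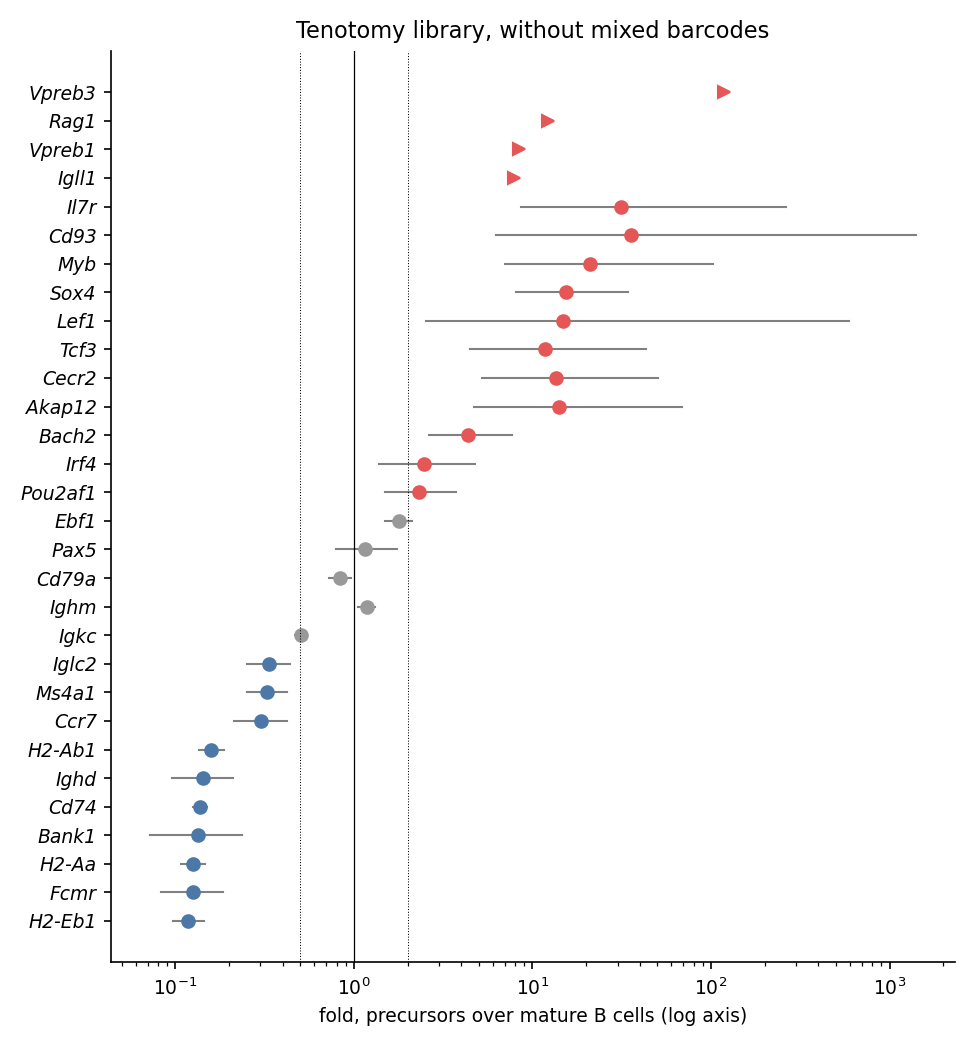
Fold of 30 genes, precursors over mature B cells, in the tenotomy library without mixed barcodes (log axis), with exact 95% intervals for counting error; triangles are lower bounds for genes at 0 in mature B cells and dotted lines mark 2-fold. Myb, Sox4 and Il7r lie far to the right, Ebf1, Pax5, Ighm and Cd79a near 1, and the MHC class II genes between 0.118 and 0.159.

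Between libraries, tenotomy precursors exceeded sham precursors 2-fold or more in 414 of 2584 measured genes, 16%, and 140 lower, 5.42%. With folds divided by their median of 0.29 (log2) the split was 265 higher and 220 lower, so the size of the surplus changes with the scaling. The classes held 470101 tenotomy and 192173 sham UMIs, so a gene high in sham reaches the limit of 25 UMIs less easily. The cause of the surplus was not tested. Without mixed barcodes 330 of 1981 were higher, 16.7%, and 85 lower, 4.29%. The named genes of all members again lay in few cells: S100a9, Camp, Ngp, S100a8, Cxcl2, Il1b, Lyz2 and Chil3 on the high side and Sparcl1, Chad, Wif1, Ogn, Col1a2, Iigp1, Dcn and Tnmd on the low side. For each of these 16 genes 2 cells held between 62.2% (Lyz2) and 100% of the UMIs in the library where it was high. In sham 3 cells held 99.1% of the 1704 UMIs of mesenchymal markers.

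Without mixed barcodes, genes of the surrogate light chain stage were lower in tenotomy precursors. Of the genes that follow, Vpreb1, Igll1, Rag1 and Vpreb3 chose the cells, so their values are a description. Vpreb3 alone chose 7 of 22 sham and 76 of 152 tenotomy members. Vpreb1 was at 224 CPM against 990 (4.43-fold lower, 3.36 to 5.87), Igll1 at 210 against 848 (4.03-fold, 3.01 to 5.42) and Dntt at 57.9 against 299 (5.17-fold, 3.02 to 9.09). A single sham cell held 27 of the 42 sham UMIs of Dntt, 64.3%, and 2 cells held 85.7%. Rag1 and Vpreb3 were at 1.17-fold and 1.63-fold. Lef1 was 3.52-fold and Id3 3.29-fold lower, whereas 19 of 23 measured transcription factors were within 2-fold. With the cycling cells left out of all members, Vpreb1 and Igll1 were at -2.45 and -2.25 on the log2 scale. Those 2 values rest on the 4 sham and 7 tenotomy noncycling cells that had either gene. Without cycling cells Dntt went from -3.32 to -1.44, from 11 tenotomy and 9 sham UMIs.

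Genes of growth were low in tenotomy precursors too: 8 of 11 measured were lower and none higher, against 4.29% lower and 16.7% higher over all measured genes. Ncl, a nucleolar protein of ribosome making, was at 554.9 against 2009 CPM (3.62-fold lower, 3.02 to 4.35). Mif (6.03-fold), the chaperone gene Hspd1 (4.88-fold), C1qbp (4.97-fold), Ybx3 (6.43-fold), Nme1 (3.48-fold), Cdk4 (3.17-fold) and Npm1 (2.66-fold) followed. The difference moved with the deep sham cycling cells, 6 cells with 130932 of the 192173 UMIs of all sham precursors. With cycling cells left out of all members, Ncl was at -0.35, Mif at -0.14 and Hspd1 at 0.081 on the log2 scale, and C1qbp was at 1.60 with 1 sham UMI.

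On the high side were 8 of 10 measured surface and adaptor genes of pre-B cells, against 16.7% of all measured genes. Fam129c had 83 UMIs in tenotomy and 3 in sham (10.2-fold, 3.38 to 50.5), Il2ra, which marks pre-B cells, 41 and 1 (15.1-fold, 2.57 to 612), and Cecr2 (3.24-fold), Cd93 (3.16-fold) and Il7r (3.15-fold) were higher by less. The kinase gene Btk had 29 UMIs against 1. Iglc1 was 3.34-fold higher and Igkc 1.57-fold. Mitosis genes were higher in 10 of 19 measured and S phase genes lower in 4 of 12, against 16.7% higher and 4.29% lower over all measured genes.

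The genes that led on the high side by the bound of their interval were mostly others. Myl4 was at 689 against 92.6 CPM (7.44-fold, 4.28 to 14.2), Emp3 6.32-fold, Trib2 at least 6.03-fold with 49 UMIs over 35 cells, Ccnb1 at least 5.42-fold and Nrgn at least 4.80-fold. Wfdc17, a gene of myeloid cells, was at least 7.51-fold higher, and its level of 160 CPM was 27.2% of the level of the whole tenotomy library. For Il1b the value was at least 10.5-fold, but 81 of its 85 UMIs were in 1 cell. With cycling cells left out of all members, the log2 fold of Myl4 went from 2.90 to 1.16, that of Emp3 from 2.05 to 1.06 and that of Trib2 from 2.77 to 1.73.

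Shares of cells at equal depth had the same order for the early genes, of which Vpreb1 and Igll1 were part of the rule. Members were chosen before thinning, and mixed barcodes stayed in. After thinning, Vpreb3 was found in 72.7% of sham and 93.0% of tenotomy members. Thinned to 1000 UMIs, Vpreb1 was in 40.9% of sham and 5.59% of tenotomy precursors, Igll1 in 40.9% and 4.196%, and Dntt in 27.3% and 2.10%. Ighm was in 68.2% and 96.5% and Igkc in 54.5% and 81.1%. For Il7r (22.7% and 34.3%), Sox4 (45.5% and 51.7%), Ms4a1 (13.6% and 17.5%) and Ighd (13.6% and 11.9%) the intervals overlapped widely. Il2ra, at 4.55% and 8.39%, was not separable at this depth. The intervals also overlapped for Igkc, Myl4 (22.7% and 36.4%), Trib2 (0% and 14.0%), Fam129c (4.55% and 23.1%) and Lef1 (18.2% and 7.69%).

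**Figure D5:**
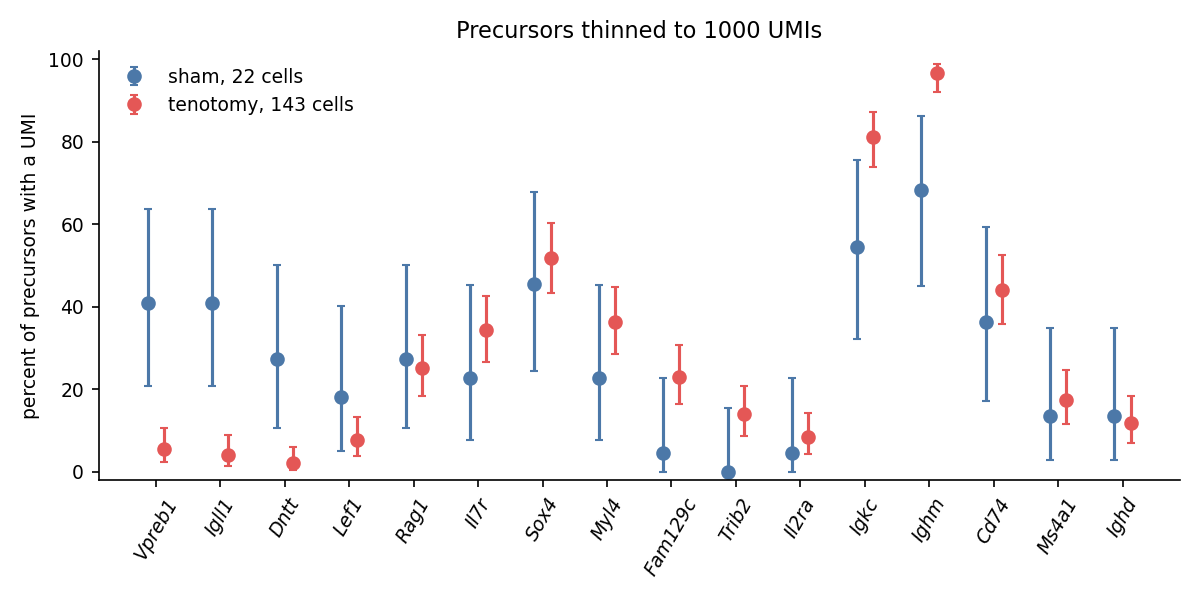
Percent of precursors with a UMI of 16 genes after each cell was thinned to 1000 UMIs, 22 sham and 143 tenotomy cells, with exact 95% intervals. Members were chosen before thinning, with Vpreb1, Igll1 and Rag1 part of the rule. The intervals are apart for Vpreb1, Igll1, Dntt and Ighm and overlap for all the other genes shown.

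Markers of other cells were present in members to the following extent, and their part in the differences between libraries was not tested. In tenotomy precursors 8 of 8 macrophage markers had UMIs, from 0 to 100 a cell, against 3 of 8 in sham, from 0 to 1 a cell, where Csf1r, Adgre1, Mrc1, Fcgr1 and C1qc were at 0. Granulocyte precursor markers were 7 of 8 in tenotomy, from 0 to 1128 UMIs a cell with 98.3% in 3 cells, and 0 of 8 in sham. Neutrophil markers were 5 of 6 in tenotomy, from 0 to 1453 a cell, and 1 of 6 in sham. Erythroid markers were 4 of 9 in tenotomy, up to 7 UMIs a cell, with Car1, Rhag and Epor among those at 0, and 2 of 9 in sham, up to 3.

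Mesenchymal markers had 5 of 6 genes in tenotomy, up to 293 UMIs a cell, and 6 of 6 in sham, up to 1331. Endothelial markers had 4 of 6 in tenotomy, up to 3 UMIs a cell with Cdh5 and Cldn5 at 0, and 6 of 6 in sham, up to 33. Muscle markers had 6 of 6 in tenotomy, up to 59 a cell, and 1 of 6 in sham. Bone lineage markers had 5 of 8 in tenotomy, up to 4 a cell, and 3 of 8 in sham, up to 10. Plasma cell genes were 4 of 6 in tenotomy, up to 16 UMIs a cell, and 3 of 6 in sham, up to 24, with Jchain and Tnfrsf17 at 0 in both. At least 3 UMIs of them were in 29 of 152 tenotomy precursors, 19.1%, and 13 of 22 sham precursors, 59.1%, and Mzb1, which B lineage cells also make, had 206 of the 263 tenotomy and 101 of the 114 sham UMIs. Plasmacytoid dendritic markers were 4 of 7 in tenotomy with 30 UMIs and 2 of 7 in sham with 32, mostly Bst2, with Siglech and Ccr9 at 0 in both. Early progenitor markers were 4 of 7 in either library, with 45 UMIs in tenotomy and 42 in sham, mostly Ly6a and Cd34, and with Mecom and Hlf at 0 in both; 2 of 152 tenotomy and 4 of 22 sham precursors had at least 3.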

How the data were processed

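Cells of pooled plantaris muscle were profiled with 10x 3′ v3.1 chemistry, 1 sham and 1 tenotomy library. The authors deposited raw UMI counts per gene and cell barcode; per the submitters' processing notes they used Cell Ranger 4.0.0 and mm10. Gene positions are from GENCODE vM21 (GRCm38), in which 32235 of 32285 gene IDs were found, and 8463 and 11950 barcodes with 47781353 and 94556283 UMIs were deposited.

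Kept cells had at least 500 UMIs, at least 300 genes and at most 10% mitochondrial UMIs. Counts were summed over the cells of a class and scaled to CPM. Folds have exact conditional binomial 95% intervals and shares Clopper-Pearson intervals (scipy 1.17.1). Ratios of shares have approximate 95% intervals, from a normal approximation on the log scale. Scrublet ran through scanpy 1.11.5; its automatic limit called 1 sham cell and had not worked there, so the tenotomy limit of 0.212 was used for both. A gene was called at 2-fold. Named genes were the 12 each way (precursors against mature B cells), up to 8 (tenotomy against sham) and up to 6 (cycling against noncycling) whose interval bound lay farthest from 1, leaving out mitochondrial, ribosomal protein and uncharacterised genes; list genes are named besides.

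The members, the gene lists and the alternatives were chosen with earlier results of these data known. The limit of 10 UMIs for mixed barcodes, the limits for granulocyte and endothelial marker cells (3 and 5 UMIs) and the genes whose thinned shares are given were chosen after seeing the data. Alternatives varied the rule, doublets, depth, filters, scaling, the weight of cells and cycling cells.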

Additional observations from a re-analysis of the deposited data

How the results depend on the processing

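No paired analysis was possible because each group is 1 library, and leaving out a replicate was not possible for the same reason. Of 101 alternative values for the main results 80 stayed close and 21 moved. Close meant inside the counting interval of the main value or, for numbers of genes, within a fixed factor of it. Leaving out doublets took out no precursor, so values among precursors could not move. A limit of 1000 UMIs took out no sham precursor either. The tally thus counts some values that were fixed, and it does not measure how stable the results are. The ratio of shares lay between 3.76 and 5.87, except for 2.52 with Vpreb3 left out of the rule, where the shares were 0.392% in tenotomy and 0.155% in sham. The tenotomy share was 0.886% at a mitochondrial limit of 5%, 0.934% with no macrophage UMI allowed and 1.10% with cells thinned; leaving mixed barcodes out of all cells, which removes most cells of other types, gave 8.50% and 2.06%. Cycling tenotomy precursors were 43.2% without Vpreb3 in the rule and 40.5% at the 5% limit. The shares with Vpreb1 or Igll1 were 83.3% in sham and 43.2% in tenotomy without Vpreb3 in the rule, and 7.69% in tenotomy thinned.

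Genes higher in tenotomy precursors than in mature B cells numbered 328 without Vpreb3 in the rule, 424 with no macrophage UMI and 242 without cycling cells; lower genes numbered 216 at the 5% limit, 138 without cycling cells, 88 without mixed barcodes and 155 with the macrophage limit also set on mature B cells. In sham 78 were lower without mixed barcodes. Between libraries, higher genes numbered 201 without Vpreb3 in the rule, 259 with no macrophage UMI, 265 with scaling by the median and 154 without cycling cells; lower genes numbered 220 with that scaling, 31 without cycling cells and 85 without mixed barcodes. The cause of these shifts was not tested.

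Of the alternative values of single genes 721 stayed close, 208 moved and 6 turned direction. Those 6 were all in tenotomy against sham, on the log2 scale: without cycling cells Col1a2 was at 4.83, Dcn at 3.13, Tnmd at 0.081, Hspd1 at 0.081 and C1qbp at 1.60, and without mixed barcodes Col1a2 was at 2.47. The few sham precursors, 22 cells with 192173 UMIs, limit every comparison between libraries. Vpreb1 and Vpreb2, the lambda constant genes and the variable segments share reads with near copies, and single library values say nothing about variation between mice.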

Other observations

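Apoptosis and homing genes, given as values with no explanation, were mostly close between precursors and mature B cells of the tenotomy library without mixed barcodes. Of 7 measured apoptosis genes 2 were higher in precursors, no more than the 34.5% of all measured genes: Bcl2l1, a survival factor, at least 3.75-fold, and Bak1, 7.40-fold from 25 UMIs against 1. Bcl2a1b, another survival gene with close copies in the mouse, was 12.1-fold lower, and Mcl1 was at 0.644-fold. Of 7 measured homing genes Rgs2 was 3.63-fold higher, Ccr7 lower, and Itga4, Cd44, Selplg and S1pr4 were between 1.55-fold and 1.82-fold.

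Of the 10 genes of the end joining list 7 were not measured, so the list says little of end joining. Xrcc6, which encodes Ku70, had 115 UMIs against 1 (34.0-fold higher in tenotomy precursors). The other measured genes, the DNA binding cofactors Hmgb2 and Hmgb1, were 13.9-fold and 7.16-fold higher. Within the precursors Hmgb2 and Hmgb1 were 17.6-fold and 5.71-fold higher in cycling cells, while Xrcc6 was 2.07-fold lower there.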
